A study of Mus musculus with 12 samples.

Results

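Proline is made from glutamate or ornithine and is broken down again to glutamate, and the transcripts of the enzymes on these routes were followed in mouse embryonic stem cells given extra proline. Of 7 genes chosen by name, 6 were measured, by 11 of the array's 45101 probe sets, out of 18193 genes named in all: Aldh18a1 and Oat on the way to proline, Pepd, which frees proline from dipeptides, Prodh and Aldh4a1 on the way from proline to glutamate, and Glud1 beyond glutamate. A probe set was a member if the platform annotation gave it exactly 1 gene symbol and that symbol was one of the 7. Pycr1, the gene of the enzyme that closes the synthesis route, was listed under no probe set in the annotation used and was not analysed here.

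The study measured transcripts of TBV2 cells, a wild-type embryonic stem cell line of the 129/SvP strain, on 12 Affymetrix arrays. The proline group (6 arrays) had 500 µM L-proline in its medium for 5 days, and the control group (6 arrays) had none added. Cells of both groups grew without feeder cells on gelatin, from a low seeding density, with leukemia inhibitory factor and without the usual supplement of non-essential amino acids, which contains proline. Each group holds biological replicates 1 and 2 with arrays a, b and c, and the 3 arrays of a biological replicate were averaged, because the labels do not say what the letters stand for; all cells are of 1 line, and p-values measure only the spread between these 4 means, which may be partly technical.

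In textbook terms, the bifunctional enzyme encoded by Aldh18a1 reduces glutamate to pyrroline carboxylate, which reductases of the Pycr family turn into proline, and ornithine aminotransferase (Oat) feeds the same intermediate from ornithine. Proline dehydrogenase (Prodh), on the inner mitochondrial membrane, oxidises proline back to the intermediate and passes electrons to the respiratory chain, Aldh4a1 then oxidises the intermediate to glutamate, and glutamate dehydrogenase (Glud1) moves glutamate carbon into the citric acid cycle. Prolidase (Pepd) cleaves dipeptides that end in proline or hydroxyproline, as arise when collagen is degraded. In mouse embryonic stem cells proline is known less as a nutrient than as a signal-like metabolite that moves the cells out of the naive state.

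The bases before the annotated transcription starts are shown for 4 genes: Aldh18a1 and Oat as the measured entries to synthesis, Pepd as the gene whose arrays separated by group, and Prodh as the entry to breakdown. They are the 250 bases before each start, 5′ to 3′ on the gene's strand, from RefSeq on build GRCm38.p6: chr19:40588464-40588713 (minus strand), chr7:132576399-132576648 (minus strand), chr7:34912157-34912406 (plus strand) and chr16:18089191-18089440 (minus strand). Capitals mark matches, on either strand, to any of the E-box CACGTG, the ATF4 response element TGATGNAAN, the CCAAT box CCAAT and the GC box GGGCGG.
Aldh18a1: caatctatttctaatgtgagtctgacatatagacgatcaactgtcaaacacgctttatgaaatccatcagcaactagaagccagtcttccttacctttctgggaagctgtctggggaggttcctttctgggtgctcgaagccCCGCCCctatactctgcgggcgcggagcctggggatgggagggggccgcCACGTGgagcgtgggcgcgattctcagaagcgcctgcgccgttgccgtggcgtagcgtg
Oat: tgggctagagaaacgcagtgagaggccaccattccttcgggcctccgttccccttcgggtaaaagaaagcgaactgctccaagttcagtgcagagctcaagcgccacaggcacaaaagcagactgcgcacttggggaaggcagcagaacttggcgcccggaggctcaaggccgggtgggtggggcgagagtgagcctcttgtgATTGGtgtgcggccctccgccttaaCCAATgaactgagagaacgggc
Pepd: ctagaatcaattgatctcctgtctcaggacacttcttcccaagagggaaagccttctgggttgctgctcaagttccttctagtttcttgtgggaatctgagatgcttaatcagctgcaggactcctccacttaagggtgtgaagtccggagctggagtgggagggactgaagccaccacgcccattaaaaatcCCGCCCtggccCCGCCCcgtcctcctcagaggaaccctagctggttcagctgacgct
Prodh: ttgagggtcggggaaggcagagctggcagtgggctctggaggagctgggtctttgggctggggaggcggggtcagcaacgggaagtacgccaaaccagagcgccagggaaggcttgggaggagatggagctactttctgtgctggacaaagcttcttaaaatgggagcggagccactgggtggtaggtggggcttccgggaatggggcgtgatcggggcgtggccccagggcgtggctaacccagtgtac

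The E-box of Aldh18a1 lies 59 to 54 bases before the start, and among the 7 genes it was the 1 window with that motif, which 6.02% of 32851 windows of this length hold. Oat has CCAAT boxes at 47 to 43 and at 22 to 18 bases before the start (33.8% of windows hold at least 1), Pepd has GC boxes at 57 to 52 and at 46 to 41 (32.7% of windows), and the Prodh window matched none of the 4 motifs. The ATF4 response element, in 3.44% of windows, was found for 1 of the 7 genes, the unmeasured Pycr1. A match describes letters and not a bound site.

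In limma, 0 of the 6 measured genes reached an adjusted p under 0.05, against 4.36% of all genes, and 1 of 6 (Pepd) had an unadjusted p under 0.05, against 22.1% of all genes. Pepd was also the 1 gene of 6 without overlap between its 6 proline and 6 control arrays, a separation found in 24.6% of all genes. The median log2 fold change was 0.022 over the 6 genes and -0.033 over all genes, and the median absolute value was 0.31 and 0.18. The absolute fold change of Pepd exceeded that of 74.0% of all genes, and that of Aldh4a1 that of 47.2%. A count of 0 or 1 among 6 is near these shares, so the values below describe levels and their spread and not changes.

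**Figure D1:**
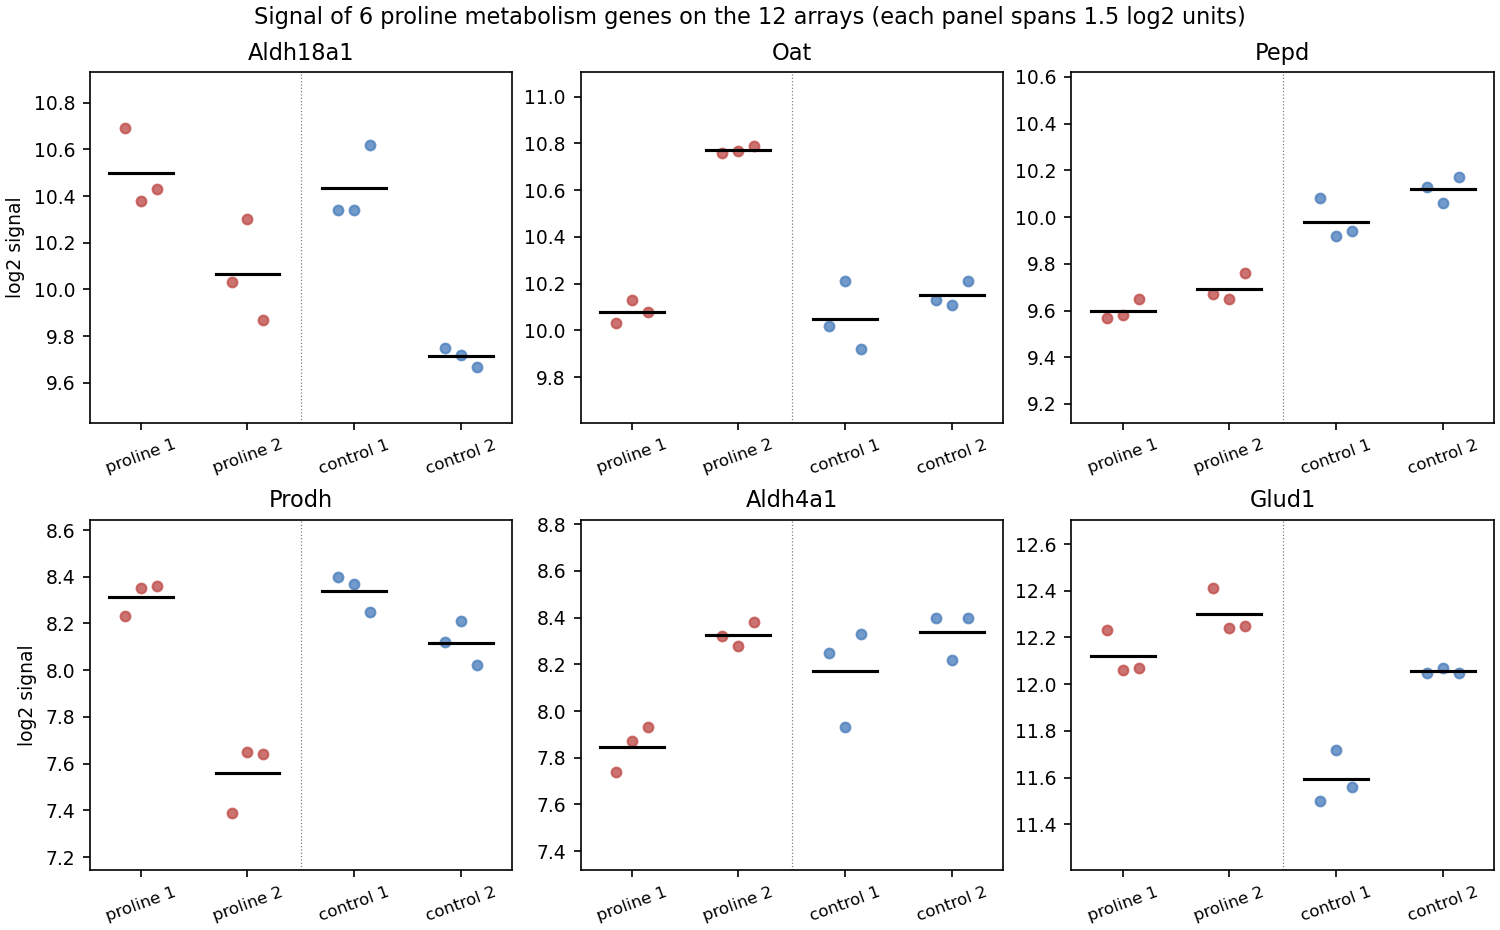
Log2 signal of the probe set used for each of the 6 genes (vertical axis) on the proline arrays (red, left) and control arrays (blue, right), by biological replicate; points are arrays and black bars are means of 3 arrays. Pepd is lower on all 6 proline arrays, Prodh is low and Oat high in proline replicate 2 alone, and Glud1 is low in control replicate 1.

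Pepd, the prolidase gene, read 9.57, 9.58 and 9.65 (log2 signal) on the arrays of proline replicate 1 and 9.67, 9.65 and 9.76 on those of proline replicate 2, against 10.08, 9.92 and 9.94 in control replicate 1 and 10.13, 10.06 and 10.17 in control replicate 2. The highest proline array lay 0.16 below the lowest control array. Both proline replicates were therefore below both control replicates, at a distance of 0.094 between the proline replicates and 0.14 between the control replicates. The means were 9.65 ± 0.067 after proline and 10.05 ± 0.098 in controls (SD, n = 2 biological replicates per group), a log2 fold change of -0.40 ± 0.12 (limma moderated SE, 95% interval -0.72 to -0.080), or 1.32-fold lower. The adjusted p over all genes was 0.156, so that the call was not made, and it lay between 1.81e-04, with the 12 arrays taken as independent samples, and 0.375 over the alternatives. All 4 proline minus control pairs of biological replicates were below 0, from -0.52 to -0.29. Here and below, the 4 pairs are formed from the same 4 means and are not independent.

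Prodh, whose enzyme starts proline breakdown, depended on 1 biological replicate. Its arrays read 8.23, 8.35 and 8.36 in proline replicate 1 and 7.39, 7.65 and 7.64 in proline replicate 2, against 8.40, 8.37 and 8.25 in control replicate 1 and 8.12, 8.21 and 8.02 in control replicate 2. Proline replicate 1 lay among the control arrays and proline replicate 2 below all of them. The means were 7.94 ± 0.54 after proline and 8.23 ± 0.16 in controls, and the log2 fold change was -0.29 ± 0.28 (95% interval -1.04 to 0.45, limma adjusted p = 0.643). Proline replicate 2 was 0.76 below proline replicate 1, a gap wider than that of 95.7% of all genes. Without proline replicate 2 the log2 fold change of Prodh was 0.088, on the other side of 0, and without proline replicate 1 it was -0.67 (limma adjusted p = 0.170).

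Oat, which connects ornithine with the proline route, parted the same replicates the other way. It read 10.03, 10.13 and 10.08 in proline replicate 1 and 10.76, 10.77 and 10.79 in proline replicate 2, against 10.02, 10.21 and 9.92 in control replicate 1 and 10.13, 10.11 and 10.21 in control replicate 2. Proline replicate 2 stood above every control array, whereas proline replicate 1 lay within their range. The means were 10.43 ± 0.49 after proline and 10.10 ± 0.068 in controls (log2 fold change 0.33 ± 0.26, 95% interval -0.35 to 1.0, limma adjusted p = 0.555). The gap of 0.69 between the proline replicates exceeded that of 94.7% of genes, against 0.096 between the controls. Leaving out proline replicate 2 gave -0.020 and leaving out proline replicate 1 gave 0.67 (limma adjusted p = 0.138). Over the 12 arrays, which come from only 4 biological replicates, Oat and Prodh correlated at r = -0.92.

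Array controls also set proline replicate 2 apart, and some of them differed between the groups. The 18S ribosomal RNA probe sets read 9.74 and 8.35 in proline replicates 1 and 2, against 10.74 and 10.04 in control replicates 1 and 2 (log2), and the poly-A spike-ins, added before labelling, read 8.65 and 8.12, against 9.02 and 8.63. The 18S signal was also lower in both proline replicates than in both control replicates, with a mean difference of -1.35. The spike-ins added at hybridization were lower too, at 11.31 and 11.06 in proline replicates 1 and 2. They read 11.50 and 11.37 in control replicates 1 and 2, a mean difference of -0.24. The part of these signals in the values of Prodh, Oat, Pepd, Slc25a12 and Gatm was not tested.

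Aldh18a1, the gene of the enzyme that commits glutamate to proline, was covered by 5 probe sets that did not give 1 picture. The probe set 1437325_x_at, used for the gene because it had the highest mean signal, read 10.69, 10.38 and 10.43 in proline replicate 1 and 10.03, 10.30 and 9.87 in proline replicate 2, against 10.34, 10.34 and 10.62 in control replicate 1 and 9.75, 9.72 and 9.67 in control replicate 2. Replicate 1 was above replicate 2 in each group, by 0.44 after proline and 0.72 in controls, and the groups overlapped. Its log2 fold change was 0.21 ± 0.30 (95% interval -0.58 to 1.0, limma adjusted p = 0.769), and it was -0.0081 without proline replicate 1 and -0.15 without control replicate 2.

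The suffix _x_at marks probe sets that may share probes with other transcripts, and the 4 of that kind (1435855_x_at, 1437325_x_at, 1437333_x_at and 1437620_x_at) varied together over the 12 arrays (r = 0.89 to 0.98 over 6 pairs). The remaining probe set, 1415836_at, correlated with them at r = 0.24 to 0.54. It read 8.50, 8.45 and 8.58 in proline replicate 1 and 8.57, 8.86 and 8.75 in proline replicate 2, against 8.43, 8.15 and 8.72 in control replicate 1 and 8.04, 7.84 and 8.28 in control replicate 2. By this probe set all 4 replicate pairs were above 0, from 0.075 to 0.67, and the highest control array overlapped the proline arrays. Its mean was 8.62 ± 0.15 after proline and 8.24 ± 0.27 in controls, a log2 fold change of 0.37, with an adjusted p of 0.402 in limma when every probe set was tested by itself. The 4 other probe sets had log2 fold changes of 0.047 to 0.21 and adjusted p of 0.808 to 0.960 in the same fit, in which 0.0998% of probe sets passed. The dimmest, 1437620_x_at, averaged 4.50 after proline and 4.45 in controls, below the 40th percentile of mean signal over all probe sets (5.36).

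**Figure D2:**
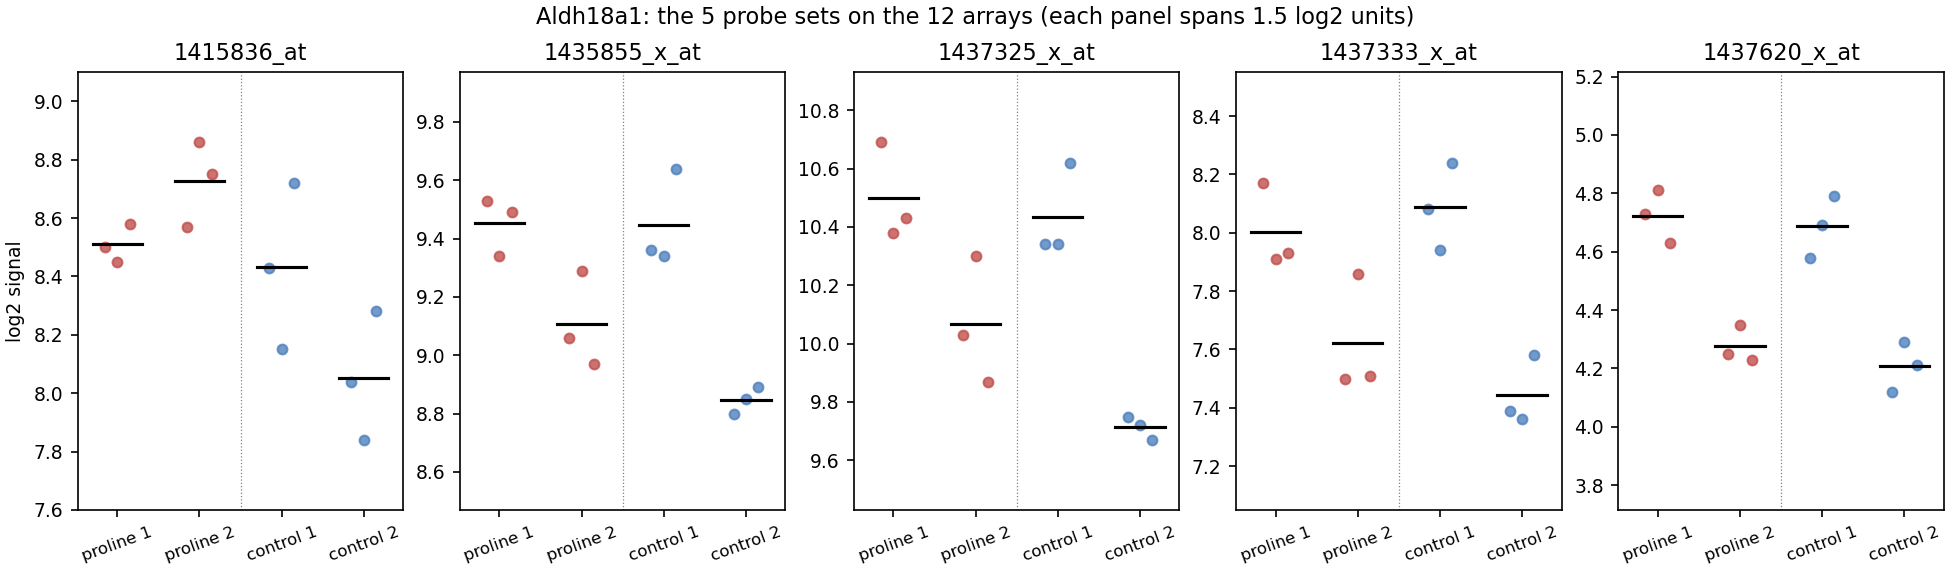
Log2 signal of the 5 Aldh18a1 probe sets (vertical axes) on the proline arrays (red, left) and control arrays (blue, right), by biological replicate; points are arrays and black bars are means of 3 arrays. In the 4 probe sets with the suffix _x_at, replicate 1 is above replicate 2 in each group, while in 1415836_at proline replicate 2 has the highest mean and control replicate 2 the lowest.

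The beta-actin 5′ minus 3′ signal, which falls with degraded or incompletely labelled RNA, was higher in replicate 2 of each group, at -0.66 and -0.24 in proline replicates 1 and 2 and at -0.90 and -0.50 in control replicates 1 and 2 (log2). The _x_at probe sets of Aldh18a1 were lower in replicate 2 of each group, and the part of RNA quality in them was not tested.

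Aldh4a1, whose enzyme completes breakdown to glutamate, was low in proline replicate 1. Its arrays read 7.74, 7.87 and 7.93 there and 8.32, 8.28 and 8.38 in proline replicate 2, against 8.25, 7.93 and 8.33 in control replicate 1 and 8.40, 8.22 and 8.40 in control replicate 2. The means were 8.09 ± 0.34 after proline and 8.25 ± 0.12 in controls (log2 fold change -0.17 ± 0.20, 95% interval -0.70 to 0.36, limma adjusted p = 0.721), and without proline replicate 1 the log2 fold change was 0.074. Prodh and Aldh4a1, which act in sequence, therefore had their low values in different proline replicates, and correlated at r = -0.54 over the 12 arrays.

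Glud1, the glutamate dehydrogenase gene, had probe sets that followed each other (r = 0.93 over the 12 arrays). By the brighter, 1416209_at, the arrays read 12.23, 12.06 and 12.07 in proline replicate 1 and 12.41, 12.24 and 12.25 in proline replicate 2, against 11.50, 11.72 and 11.56 in control replicate 1 and 12.05, 12.07 and 12.05 in control replicate 2. Control replicate 1 stood below the other 3, and control replicate 2 reached the lower edge of the proline arrays. The means were 12.21 ± 0.13 after proline and 11.82 ± 0.33 in controls (log2 fold change 0.38 ± 0.20, 95% interval -0.13 to 0.90, limma adjusted p = 0.355), and all 4 replicate pairs were above 0, from 0.063 to 0.70. Without control replicate 1 the log2 fold change was 0.15, against 0.62 without control replicate 2. The other probe set, 1448253_at, gave 0.20, with means of 11.52 ± 0.068 after proline and 11.32 ± 0.22 in controls.

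**Figure D3:**
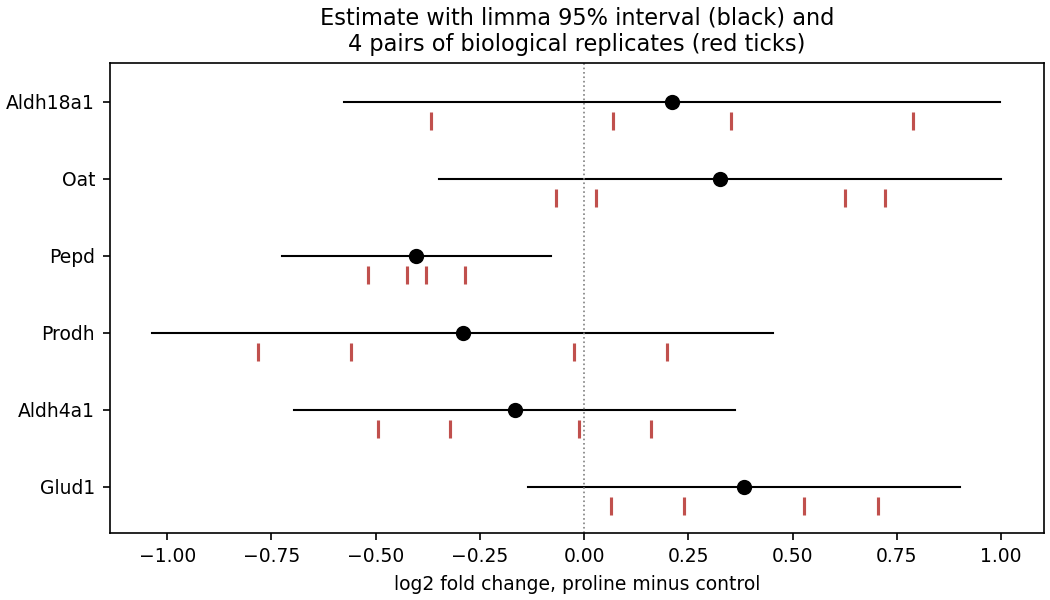
Log2 fold change of proline minus control for the 6 genes (horizontal axis), with limma's 95% interval as a black line and the 4 possible pairs of biological replicates as red ticks. The interval of Pepd, from -0.72 to -0.080, is the 1 that leaves out 0 before adjustment over all genes, and the pairs of Prodh and Oat form separate clusters by proline replicate.

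Synthesis was set against breakdown by the log2 fold change of Aldh18a1 minus the mean of Prodh and Aldh4a1, as a description without a test. The difference was 0.44, with a pooled SD of 0.38 between biological replicates. In the pairs with proline replicate 1 it was 0.24 against control replicate 1 and 0.94 against control replicate 2, and in those with proline replicate 2 it was -0.057 and 0.64. With the probe set 1415836_at for Aldh18a1 the same 4 pairs gave 0.25, 0.60, 0.60 and 0.96. The difference was above 0 in 3 of 4 pairs by 1437325_x_at, at a size near the replicate spread, and in 4 of 4 by 1415836_at, where it was 0.60 with a pooled SD of 0.25. Aldh18a1 alone stands for synthesis in this value, since Pycr1 was not analysed.

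The routes around the pathway held 2 genes that passed, against 4.36% of all genes. They were 1 of 14 glutamate and glutamine genes and 1 of 18 ornithine, arginine and polyamine genes. The other lists around the pathway held no gene that passed. Counts this small are near that share, so they describe 2 genes and not the routes. Slc25a12, a mitochondrial carrier that exchanges aspartate for glutamate, fell to 7.81 and 7.23 (log2 signal) in proline replicates 1 and 2, against 9.25 and 9.30 in control replicates 1 and 2. Its log2 fold change was -1.75 ± 0.22 (limma adjusted p = 0.0363), or 3.37-fold lower. Its other probe sets gave -1.03, again without overlap between the arrays, and -0.15, with overlap. Gatm, which starts creatine synthesis from arginine and glycine and releases ornithine, rose to 6.54 and 7.10 in proline replicates 1 and 2, against 5.23 and 5.44 in control replicates 1 and 2 (log2 fold change 1.48 ± 0.23, limma adjusted p = 0.0452). The control mean of Gatm, 5.34, was below that percentile of signal. Over the alternatives the adjusted p of Slc25a12 ran from 1.25e-07 to 0.835, the highest in the probe set with -0.15, and that of Gatm from 1.83e-06 to 0.185. Leaving out biological replicates in turn gave log2 fold changes of -2.04 to -1.46 for Slc25a12 and 1.20 to 1.76 for Gatm. With 1 residual degree of freedom left, 0 genes then passed in limma (2766 to 3676 had an unadjusted p under 0.05), and both calls ended: the adjusted p of Slc25a12 was 0.0516 without proline replicate 1, 0.0776 without proline replicate 2, 0.156 without control replicate 1 and 0.101 without control replicate 2. For Gatm it was 0.0516, 0.0974, 0.185 and 0.110 in the same order.

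Of the glutamate and glutamine genes, 1 of 14 fell (Slc25a12), 0 rose and 13 did not pass, against 1.34% of all genes that fell and 3.03% that rose, with a median log2 fold change of 0.061 over the 14. Dlst of the alpha-ketoglutarate dehydrogenase complex measured 0.54 ± 0.13 (limma adjusted p = 0.104), the mitochondrial aspartate aminotransferase Got2 0.38 ± 0.11 (adjusted p = 0.146) and glutamine synthetase (Glul) -0.50 ± 0.15 (adjusted p = 0.157). Of the ornithine, arginine and polyamine genes, 1 of 18 rose (Gatm), 0 fell and 17 did not pass, with a median of 0.063. Argininosuccinate lyase (Asl) measured 0.70 ± 0.14 (adjusted p = 0.0776), the polyamine acetyltransferase Sat1 1.34 ± 0.33 (adjusted p = 0.108) and Cps1 of the urea cycle -0.58 ± 0.11 (adjusted p = 0.0716) at a signal under the 40th percentile in proline cells.

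Genes of other peptidases that cut at proline included 0 of 11 that passed, against 4.36% of all genes, with a median of -0.021. Dpp4, a cell surface dipeptidyl peptidase, read 6.88 and 5.71 in proline replicates 1 and 2, against 9.29 and 7.67 in control replicates 1 and 2 (log2 fold change -2.19 ± 0.67, limma adjusted p = 0.157), and the lysosomal Dpp7 measured -1.35 ± 0.45 (adjusted p = 0.183). Both had all 6 proline arrays below all 6 control arrays, as 10.8% of all genes did, and both were lower in replicate 2 than in replicate 1 of each group. Xpnpep1, an aminopeptidase that acts before proline, measured -0.31 ± 0.13 (limma adjusted p = 0.279), also with all 6 proline arrays below all 6 control arrays. Arrays without overlap were thus found for 3 of the 11 genes, against 24.6% of all genes. Xpnpep3, the mitochondrial relative of Xpnpep1, measured -0.27 ± 0.15 (limma adjusted p = 0.406).

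Amino acid carriers listed around proline included 0 of 14 that passed, against 4.36% of all genes. Whether each of them carries proline was not checked here. At an unadjusted p under 0.05 there were 5 of 14, against 22.1% of all genes, and the median was -0.093. Slc6a15 measured 1.29 ± 0.25 (limma adjusted p = 0.0691) and Slc1a4 1.20 ± 0.25 (adjusted p = 0.0792), whereas the brain-type proline transporter Slc6a7 measured -0.88 ± 0.24 (adjusted p = 0.126) and Slc38a4 -0.68 ± 0.21 (adjusted p = 0.156). The ubiquitous carrier Slc38a2 averaged 11.89 ± 0.016 after proline and 11.92 ± 0.29 in controls. The pathway's paralogues included 0 of 2 that passed, Pycrl, also called Pycr3, a further reductase at the end of synthesis, at 0.056 ± 0.14 (adjusted p = 0.871), and Prodh2, the hydroxyproline dehydrogenase, at 0.020 ± 0.11 (adjusted p = 0.948).

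Of the remaining lists, to be read against the same 4.36% and 22.1% of all genes, hydroxyproline breakdown held 0 of 5 that passed (Prodh2, Aldh4a1 and Got2 among them), with Hoga1 at 0.15 ± 0.14 (limma adjusted p = 0.609) and Grhpr at -0.15 ± 0.26 (adjusted p = 0.809). The proline-charging enzymes held 0 of 2, with Eprs at -0.24 ± 0.15 (adjusted p = 0.454) and its mitochondrial counterpart Pars2 at -0.36 ± 0.21 (adjusted p = 0.425). Known regulators of the pathway's genes held 0 of 6, with 0 at an unadjusted p under 0.05. Among them Atf4, the amino acid response factor, measured -0.30 ± 0.19 (adjusted p = 0.471), Foxo1 0.32 ± 0.22 (adjusted p = 0.492), Pparg -0.18 ± 0.12 (adjusted p = 0.504) and Hif1a 0.16 ± 0.15 (adjusted p = 0.635). The signal of Pparg, 4.09 after proline and 4.27 in controls, was below the 40th percentile (5.36).

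**Figure D4:**
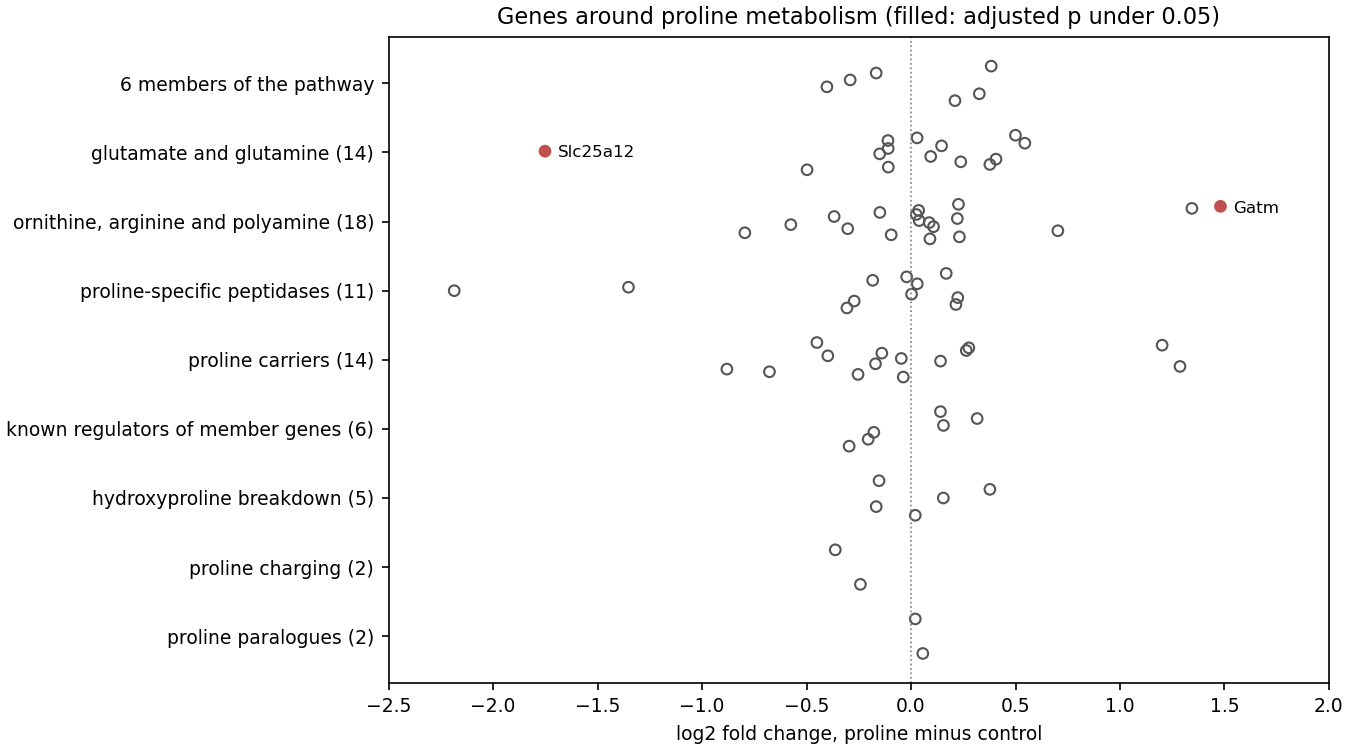
Log2 fold change of proline minus control (horizontal axis) for the 6 genes and for the measured genes of 8 lists around them, 1 circle per gene, with the number measured after the list's name; filled circles passed an adjusted p of 0.05. Slc25a12 and Gatm are the filled circles, and the 6 genes lie between -0.40 and 0.38.

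The cells carried the markers of embryonic stem cells in both groups, with Pou5f1 at 13.15 ± 0.40 after proline and 13.44 ± 0.17 in controls, and 0 of the 10 such markers under the 40th percentile; 2 of the 10 fell, against 1.34% of all genes, Esrrb (log2 fold change -1.49, limma adjusted p = 0.0246) and Zfp42 (-1.39, adjusted p = 0.0288). Of the same list Lin28a measured 0.67 ± 0.11 (limma adjusted p = 0.0530), with all 6 proline arrays above all 6 control arrays, and Sox2 -0.55 ± 0.11 (adjusted p = 0.0776). Lin28a was the 1 marker of the 10 above 0, against 43.9% of all genes, and the median log2 fold change of the 10 was -0.32. Fibroblast or feeder markers had 5 of 10 members under that percentile, and their mean signal was 5.03 and 5.51 in proline replicates 1 and 2 and 5.38 and 5.06 in control replicates 1 and 2. Of these 10 markers 4 were above 0 and 6 below 0, with a median log2 fold change of -0.033, and 0 passed. Among them the matrix gene Dcn read 6.03 and 6.37 in proline replicates 1 and 2, against 5.45 and 5.41 in control replicates 1 and 2. Its log2 fold change was 0.77 ± 0.16 (limma adjusted p = 0.0769). All 6 proline arrays of Dcn lay above all 6 control arrays, as in 13.8% of all genes. Dcn was the 1 marker of the 10 with an unadjusted p under 0.05, against 22.1% of all genes. Hepatocyte markers, of a cell type that breaks down much proline, had 3 of 6 under the 40th percentile. Alb read 4.65 after proline and 4.66 in controls. Cps1 of this list measured -0.58 ± 0.11 (limma adjusted p = 0.0716). Its 6 proline arrays lay below its 6 control arrays, as in 10.8% of all genes. Of the 6 hepatocyte markers 2 were above 0 and 4 below 0, with a median log2 fold change of -0.032, and 0 passed. In bulk cultures fewer cells of a kind and less RNA per cell cannot be told apart.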

How the data were processed

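The authors deposited normalized log2 signals per probe set. The submitters' processing notes name MAS5 and RMA without versions or roles, and the genome build is not given in the sources used here. The values ran from 2.1 to 14.79 with array medians of 5.99 to 6.03 and 0 missing, and detection calls were not used. Names came from the platform annotation, updated through a RefSeq table of assembly GRCm38.p6: 34945 probe sets had 1 symbol, 932 several, 9160 are unnamed here and 64 are array controls. For each gene the probe set of highest mean signal was taken.

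The 3 arrays of a biological replicate were averaged, and limma 3.58.1 in R 4.3.3 (lmFit, eBayes, two-sided, 2 residual and 2.6 prior degrees of freedom) compared the 4 means, with Benjamini-Hochberg adjustment over 18193 genes and a threshold of 0.05. With 2 values against 2, the smallest p of an exact permutation test is 0.333 (two-sided). The precision is limited by the number of biological replicates. The procedure was run on simulated data with independent noise, as a check that set fold changes were recovered. Its rates of missed and false calls are not given here.

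The genes, the lists and the rule for naming genes (from each of the 8 lists around the pathway those past the threshold and the 4 with the smallest p) were chosen with earlier results of these data known. The synthesis value had been planned over Aldh18a1 and Pycr1 and rests on Aldh18a1. Other list genes and the markers given are examples, chosen after their values were seen. Alternatives were other normalizations, filters, probe set choices, replicate units and fits, and leaving out each biological replicate and array. Promoter windows and motifs were chosen after the values were seen. Plots were drawn with matplotlib 3.10.9.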

Additional observations from a re-analysis of the deposited data

How the results depend on the processing

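The count of members past the threshold was 0 in limma under 24 of 26 alternatives. Of these, 4 left out a biological replicate and kept 1 residual degree of freedom, so their 0 says nothing about the members. The count of members was 2 (Pepd and Glud1) with the 12 arrays taken as independent and 1 (Pepd) with the biological replicate as a random block. The 794 genes past the threshold became 351 with the median over probe sets. When every probe set was tested by itself, 45 of 45101 probe sets passed, so the 0 members there say little about these genes. The gene count was 6804 with independent arrays, 3987 with the random block and 2039 with the replicate number as a block. Whether equal numbers pair the cultures is not given in the labels. Across genes, the differences between replicates 2 and 1 of the proline group and of the control group correlated at r = 0.338, and with the replicate block 0 members passed. Without any one biological replicate 0 genes passed (2766 to 3676 at an unadjusted p under 0.05), since 1 residual degree of freedom was then left and the lone mean is assumed to vary like the other group. Leaving out an array gave 732 to 844 genes.

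Leaving out biological replicates in turn spread Aldh18a1 from -0.15 to 0.57, Aldh4a1 from -0.41 to 0.074, Oat from -0.020 to 0.67, Prodh from -0.67 to 0.088, Glud1 from 0.15 to 0.62 and Pepd from -0.47 to -0.33 (log2 fold changes), so that Aldh18a1, Aldh4a1, Oat and Prodh turned direction. Synthesis minus breakdown ranged from 0.092 to 0.79 in the same alternatives, was 0.29 with Oat counted as synthesis and Glud1 as breakdown, and 0.60 without probe sets of the suffixes _x_at and _s_at. The causes were not tested. Quantile normalization and median centring changed no direction of the 6 genes.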

Other observations

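The genes whose signal followed each member most closely over the 12 arrays are given as a description, since the arrays come from 4 biological replicates and any gene with the same few high and low replicates ranks high. Among genes above the 40th percentile of signal, Pepd was followed by Ptp4a3 (r = 0.98) and Med29 (r = 0.98), with log2 fold changes of -0.44 and -0.40. Prodh was followed by Zscan22 (r = 0.98) and Mettl3 (r = 0.98), and Oat by Jak1 (r = 0.98) and Cers4 (r = 0.98). Glud1 was followed by Mplkip (r = 0.99) and Klhl21 (r = 0.98), and Aldh4a1 by Fgf17 (r = 0.91) and Arhgap1 (r = 0.91).

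For Aldh18a1 followers were sought for 2 of its 5 probe sets. Cdkn1b (r = 0.96) and Yeats2 (r = 0.96) came closest to 1437325_x_at, and Hmox2 (r = 0.96) and Btrc (r = 0.94) to 1415836_at. The limma adjusted p of these 14 genes was at least 0.137.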
